A study of Mus musculus with 5 samples.

Results

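The genes of the heterotrimeric G proteins and of the regulators of G protein signalling (RGS) were described in brain RNA sequencing libraries from 5 male mice of strain C57BL/6, each 30 months old. The strain is inbred. All 5 mice form 1 group with no treatment or genotype named in the labels, and they are called mice 7, 8, 9, 10 and 11 after their label numbers. No other age was analysed here, so the values are levels in the old male brain and differences between these mice. Members were chosen by gene name, with earlier results of these data known, and a further RGS gene is not reported here. They are the protein-coding genes whose GENCODE M21 symbol is that of a G protein alpha, beta or gamma subunit or of a numbered RGS gene, and there are 53 of them among 47729 genes in the count table, of which 21697 are protein-coding. They comprise 16 alpha subunits, 5 beta subunits, 12 gamma subunits and 20 RGS genes.

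A heterotrimeric G protein carries the signal of a G protein-coupled receptor into the cell. The receptor makes the alpha subunit release GDP and bind GTP, and the alpha subunit and the joined beta and gamma subunits then act separately on enzymes and ion channels. The alpha subunit ends the signal by cleaving its GTP, and most RGS proteins speed that step up for alpha subunits of the Gi/o or Gq families. In the brain these proteins serve the receptors of dopamine, acetylcholine, opioids, glutamate, GABA and many other transmitters.

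The libraries held 15392006 to 18723390 counts, and 22686 to 24708 genes had at least 1 count. Levels are given as RPKM, counts scaled to the length of the exons and to the size of the library, recomputed with each library's own total. The members held 0.522% ± 0.021 of all counts (SD, n = 5, as for every SD given here). The SD covers the spread between these samples. The labels do not say how far it is technical. Marker genes of brain cells were abundant: the summed RPKM of 5 neuron markers lay between 655 and 791 and that of 5 oligodendrocyte markers between 617 and 858, while 4 liver markers summed to between 0.065 and 0.351. The 5 lymphocyte markers summed to between 1.78 and 2.72. The mean log2 deviation of 7 cerebellum markers ran from -1.59 in mouse 9 and -0.97 in mouse 11 to 1.13 in mouse 7 and 2.23 in mouse 10. The markers differed among themselves. Gabra6 had 52, 2, 0, 127 and 0 counts in mice 7 to 11, whereas Calb1 had 28.3 RPKM in mouse 7 and 21.1 in mouse 10. Genes with few or no counts in some mice weigh heavily in this mean. In such bulk tissue, fewer cells of a type and less RNA per cell cannot be told apart.

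Of the 53 members, 39 had a mean of at least 1 RPKM and 27 of at least 10 RPKM. No counts at all were found for 3 of them in any library. These 3 are Gnat3, which encodes the taste cell alpha subunit gustducin, Gngt1, which encodes the rod photoreceptor gamma subunit, and Rgs21, an RGS gene known from taste cells. A count of 0 allows up to 3 counts, which is between 0.160 and 0.195 CPM in these libraries (CPM scales counts to library size alone). The summed level was 455 ± 16.1 RPKM for the alpha subunits, 337 ± 33.1 for the beta subunits, 230 ± 17.7 for the gamma subunits and 252 ± 17.1 for the RGS genes. All members together summed to 1274 ± 62.0 RPKM, with 1172 in mouse 7 and 1272, 1296, 1289 and 1339 in mice 8, 9, 10 and 11. Mouse 7 thus had the lowest total and the other 4 lay within a narrow band.

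**Figure D1:**
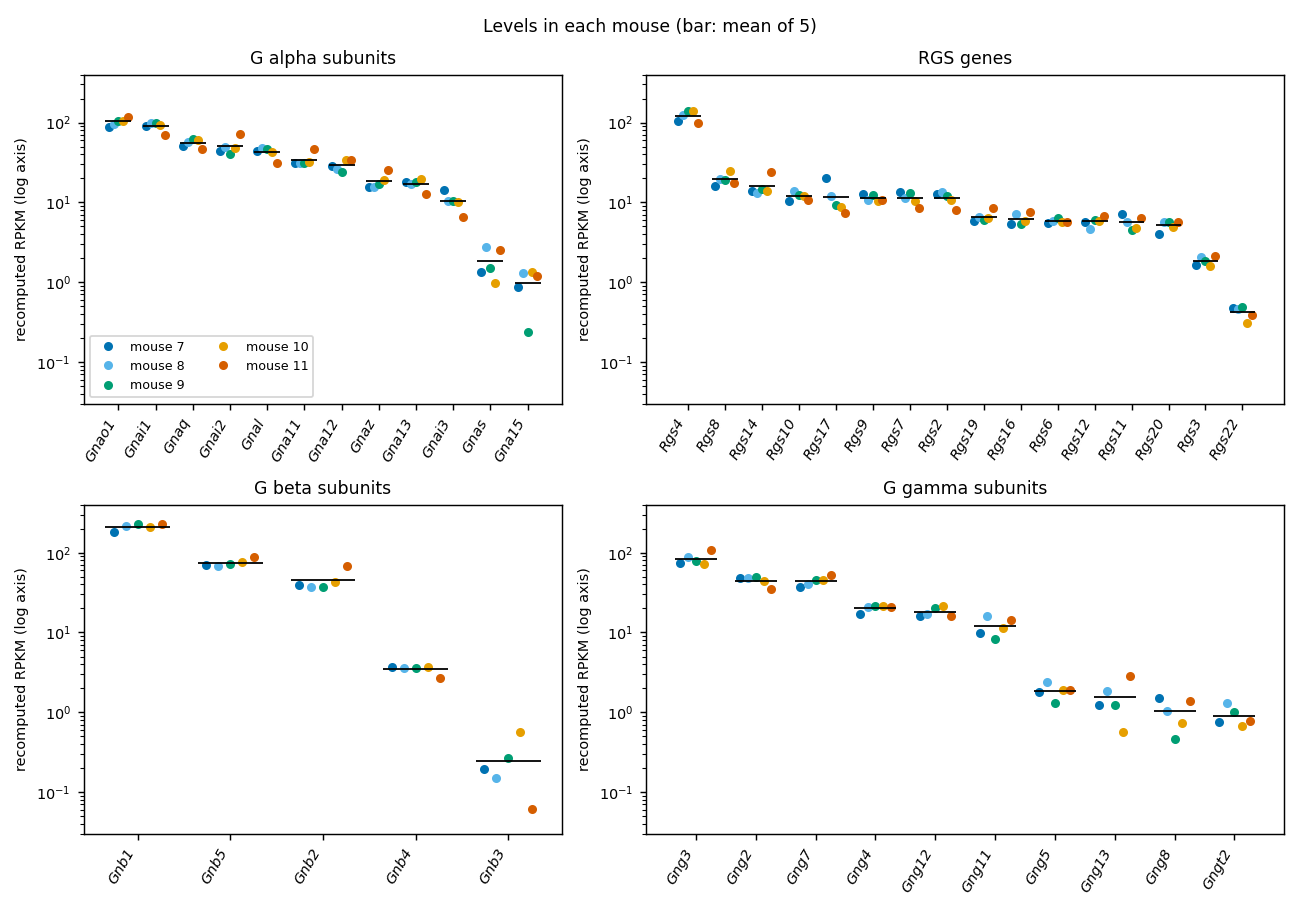
Level of each of the 43 genes whose mean count reached 10, in recomputed RPKM on a log axis, 1 panel per class, with 1 point per mouse coloured by mouse and a bar at the mean of 5. The leading genes are Gnao1 and Gnai1, Rgs4, Gnb1 and Gng3, and points of mouse 11 often stand above or below the other 4.

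The alpha subunits fall into 4 families, and the Gi/o family held most of the summed level, with 273 ± 13.9 RPKM. It was followed by Gq/11 with 91.1 ± 5.11, G12/13 with 46.4 ± 4.18 and Gs with 44.4 ± 6.38. The place of Gs is uncertain. Gnal made up 92.5% to 97.8% of its sum, and the counted level of its other gene, Gnas, is uncertain, as described below. Gnao1, which encodes the Go alpha subunit that couples many neuronal receptors to ion channels, had 89.1, 97.3, 106, 105 and 118 RPKM in mice 7, 8, 9, 10 and 11. Mouse 11 had the most and mouse 7 the least. Gnai1, which encodes an inhibitor of adenylyl cyclase, had 91.4, 97.5, 99.3, 92.5 and 69.5 RPKM in the same order, with mouse 11 below the other 4. The ranges of Gnao1 and Gnai1 overlapped, and Gnao1 was the higher in 3 of 5 mice. Gnao1 made up 22.7% ± 1.73 of the summed alpha level. Its place rests on the length used: with the exon length of GENCODE M21 (11053 bases in place of the 6785 implied by the authors' RPKM) it averaged 63.4 RPKM, below the 90.04 of Gnai1.

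The closely related Gnai2 had 43.7, 48.8, 40.7, 48.5 and 72.4 RPKM in mice 7 to 11, with mouse 11 far above the rest. Set against Gnai1, its log2 ratio averaged -0.83 ± 0.51. It was -0.92 or lower in 4 mice and 0.06 in mouse 11, the single mouse in which Gnai2 was the higher (exact two-sided sign-flip test p = 0.125, adjusted p = 0.135 over 14 pairs). Gnai3, another inhibitory subunit of this type, had 14.1, 10.4, 10.4, 10.1 and 6.52 RPKM. It ran in the opposite direction, highest in mouse 7 and lowest in mouse 11. Gnaz, whose product also inhibits adenylyl cyclase but cleaves GTP slowly, averaged 18.4 ± 4.18 RPKM and was again highest in mouse 11, at 25.4. The remaining members of this family are the photoreceptor transducins and gustducin. The rod gene Gnat1 averaged 0.0962 ± 0.0672 RPKM and the cone gene Gnat2 0.0820 ± 0.0714, each on at most 11 counts in a library.

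Of the alpha subunits that activate phospholipase C beta, Gnaq had 50.2, 57.8, 62.9, 60.6 and 47.1 RPKM in mice 7 to 11 and was lowest in mouse 11. Gna11 had 31.3, 30.97, 30.97, 31.7 and 46.2 RPKM and was highest there. In mice 7 to 10 Gna11 varied by less than 1 RPKM. Gnaq was the higher of the pair in 5 of 5 mice, by a log2 ratio of 0.70 ± 0.40 (exact two-sided sign-flip test p = 0.0625, the smallest that 5 mice allow, adjusted p = 0.0729 over 14 pairs). In mouse 11 the ratio was only 0.03. Gna15, known from blood cells, had counts of 29, 43, 8, 46 and 47, with mouse 9 far below the rest, and averaged 0.988 ± 0.458 RPKM. Gna14 averaged 0.137 ± 0.0853 RPKM on at most 13 counts. Of the G12/13 pair, whose products act on the actin cytoskeleton, Gna12 had 28.6, 26.4, 24.05, 33.5 and 34.02 RPKM and Gna13 18.02, 16.9, 18.2, 19.4 and 12.9. Gna13 was the lower in 5 of 5 mice, with a log2 ratio to Gna12 of -0.75 ± 0.36 (exact p = 0.0625, adjusted p = 0.0729).

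The Gs family stimulates adenylyl cyclase. Gnal, which encodes the form used by olfactory and striatal neurons, had 44.01, 47.5, 47.04, 43.1 and 31.3 RPKM in mice 7 to 11 and was lowest in mouse 11. The summed level of 8 markers of striatal projection neurons was 254, 316, 329, 303 and 382 RPKM in mice 7 to 11. In mouse 11 most of that sum came from Penk (142 RPKM) and Ppp1r1b (88.2), whereas the markers Pde10a (23.2) and Tac1 (10.2) were lowest in that mouse. After removal of the GC and length trends described further on, the mean deviation of the 8 markers was 0.08 in mouse 11 and highest in mouse 9, at 0.15. With the M21 exon length Gnal would average 22.0 RPKM in place of 42.6. Gnas, which encodes the widespread form, had only 232, 476, 260, 175 and 532 counts and 1.33, 2.76, 1.48, 0.975 and 2.54 RPKM. It was highest in mice 8 and 11 and lowest in mouse 10. Gnas was lower than Gnal in 5 of 5 mice, the log2 ratio of Gnal to Gnas being 3.98 ± 0.53, and the log2 ratio of Gnao1 to Gnas was 5.25 ± 0.39 (exact p = 0.0625 and adjusted p = 0.0729 for each). The counted level of Gnas is uncertain. The locus holds overlapping genes on the opposite strand, Nespas and Gm20721, 18.6% of the 50-base stretches of Gnas transcripts also occur in transcripts of other genes, and its joined exons span 11186 bases. How far the authors' counting set aside reads of this locus was not tested.

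Beta subunits were led by Gnb1, the member with the highest level of all, at 181, 215, 227, 213 and 226 RPKM in mice 7 to 11. It was lowest in mouse 7 and close in the other 4. Gnb1 made up 63.2% ± 3.55 of the summed beta level. The 250 bases before its annotated start (chr4:155491111-155491360, plus strand, GRCm38.p6, RefSeq) are shown because they belong to the most abundant member; capitals mark CG dinucleotides, of which there are 26.
Gnb1: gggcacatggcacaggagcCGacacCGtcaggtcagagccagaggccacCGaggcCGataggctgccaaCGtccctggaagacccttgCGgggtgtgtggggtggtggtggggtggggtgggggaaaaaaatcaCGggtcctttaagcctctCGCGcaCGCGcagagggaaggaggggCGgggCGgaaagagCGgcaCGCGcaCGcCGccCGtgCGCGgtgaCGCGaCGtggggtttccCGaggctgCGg
This window holds a GC box and no TATA box.

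Gnb2 had 39.9, 37.5, 37.3, 42.7 and 68.4 RPKM, with mouse 11 far above the rest. Gnb1 exceeded Gnb2 in 5 of 5 mice, with a log2 ratio of 2.24 ± 0.34 (exact p = 0.0625, adjusted p = 0.0729). Gnb5 is the divergent beta subunit that pairs with the R7 group of RGS proteins instead of a gamma subunit. It had 70.7, 67.5, 71.2, 77.1 and 89.5 RPKM, with the highest value in mouse 11. Its level depends strongly on the length: the authors' values imply 1188 bases, and with the 3115 bases of M21 it would average 28.7 RPKM, below Gnb2. Gnb4 had 3.73, 3.64, 3.58, 3.67 and 2.67 RPKM and was lowest in mouse 11. The log2 ratio of Gnb5 to Gnb4 was 4.09 ± 0.30 (exact p = 0.0625, adjusted p = 0.0729). Gnb3, known from cone photoreceptors and bipolar cells of the retina, had 8, 6, 11, 24 and 3 counts and averaged 0.248 ± 0.194 RPKM, with the most counts in mouse 10 and the fewest in mouse 11.

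Gng3, a gamma subunit of neurons, led its class with 74.7, 88.3, 78.5, 72.9 and 109 RPKM in mice 7 to 11 and was highest in mouse 11. It made up 36.7% ± 3.70 of the summed gamma level. Gng2 had 47.8, 48.8, 48.97, 43.8 and 34.6 RPKM and was lowest in mouse 11, so the log2 ratio of Gng3 to Gng2 was 1.62 there and between 0.63 and 0.84 in the other 4 mice (mean 0.90 ± 0.41, exact p = 0.0625, adjusted p = 0.0729). Gng7, the gamma subunit that assembles with the Gnal product in mouse striatum, had 37.4, 40.5, 45.02, 45.7 and 52.96 RPKM and was lowest in mouse 7 and highest in mouse 11. It was lower than Gng3 in 5 of 5 mice, with a log2 ratio to Gng3 of -0.91 ± 0.18 (exact p = 0.0625, adjusted p = 0.0729). The ranges of Gng2 and Gng7 overlapped and their order differed between mice. Reads of Gng3 may be shared with Bscl2, which overlaps it on the opposite strand (21.9% of 50-base stretches in common), since the strand setting of the counting is not given in the sources used here. Reads of Gng2 may likewise be shared with the noncoding Gm48283 (18.8%).

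The other gamma genes were lower. Gng4 averaged 20.4 ± 1.76 RPKM, Gng12 18.2 ± 2.62 and Gng11 11.9 ± 3.15. Gng12 ran from 15.9 RPKM in mouse 7 to 21.6 in mouse 10. Gng11 had 9.73, 15.98, 8.34, 11.3 and 14.2 RPKM in mice 7 to 11 and was high in mice 8 and 11. Near 1 RPKM stood Gng5 with 1.87 ± 0.394, Gng13 with 1.55 ± 0.851, Gng8 with 1.02 ± 0.437 and Gngt2, the cone gamma gene, with 0.904 ± 0.265. Gng13 and Gng8 are known from sensory cells. Their counts were 15, 22, 15, 7 and 41 for Gng13, lowest in mouse 10 and highest in mouse 11, and 36, 24, 11, 18 and 39 for Gng8, lowest in mouse 9. Gngt2 had counts of 22, 38, 30, 20 and 27, highest in mouse 8. Gng13 overlaps Chtf18 on the opposite strand, with 43.0% of its 50-base stretches in common. Gng10 was listed at 0.206 ± 0.151 RPKM, but 71.5% of its 50-base stretches also belong to the annotated gene Gm20503 on the same strand; its level is therefore uncertain.

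**Figure D2:**
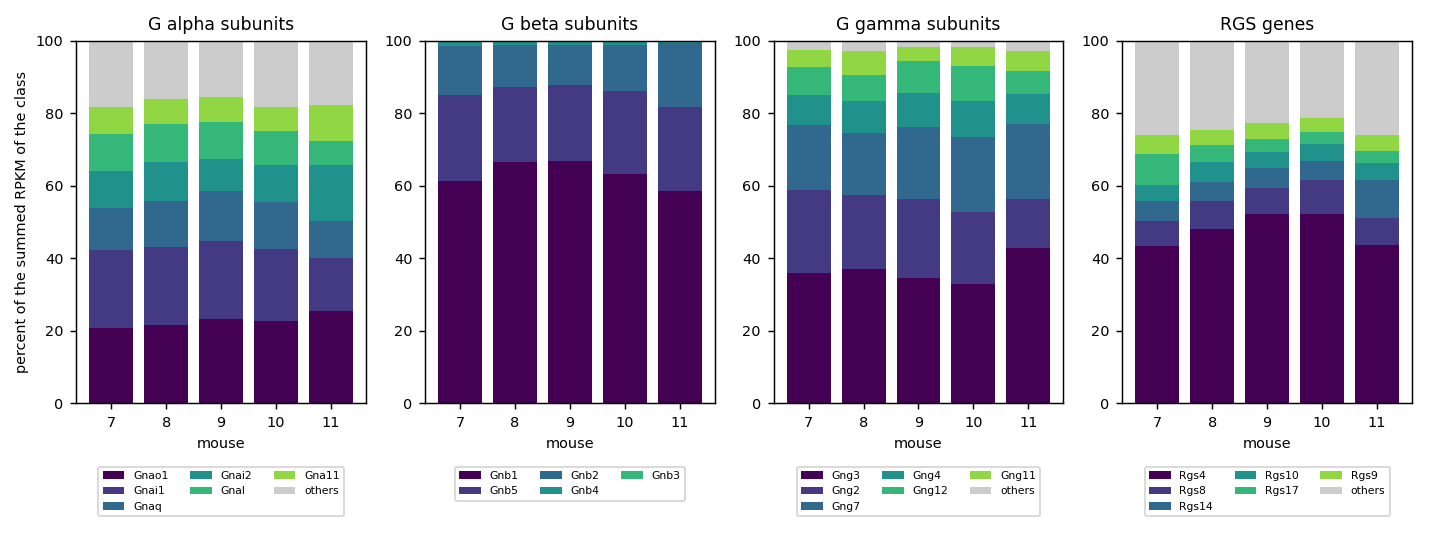
Share of the summed recomputed RPKM of each class, in percent, held by each gene in mice 7 to 11, 1 bar per mouse, with the smaller genes joined as others. Gnao1, Gnb1, Gng3 and Rgs4 form the lowest block of every bar, and in mouse 11 the shares of Gnai1 and Gng2 are the smallest and those of Gnai2 and Gnb2 the largest of the 5.

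RGS genes were led by a single gene. Rgs4, whose product accelerates GTP cleavage by Gi/o and Gq alpha subunits, had 104, 124, 141, 138 and 100.1 RPKM in mice 7 to 11, with lower values in mice 7 and 11. It made up 47.9% ± 4.36 of the summed RGS level. The 250 bases before its annotated start (chr1:169747643-169747892, minus strand, GRCm38.p6, RefSeq) are shown for comparison with those of Gnb1; they hold 13 CG dinucleotides (capitals), a TATA box and no GC box.
Rgs4: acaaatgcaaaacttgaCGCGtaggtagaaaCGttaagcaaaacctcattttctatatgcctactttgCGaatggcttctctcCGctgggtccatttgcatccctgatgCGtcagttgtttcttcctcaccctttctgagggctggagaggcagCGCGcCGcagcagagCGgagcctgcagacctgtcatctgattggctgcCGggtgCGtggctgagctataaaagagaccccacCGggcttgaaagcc
The R4 family, to which it belongs, consists of small proteins with little outside the RGS domain. Rgs8, which is abundant in cerebellar Purkinje cells, had 15.9, 19.9, 18.998, 24.5 and 17.6 RPKM. It was highest in mouse 10, the mouse with the highest summed RPKM of the cerebellum markers (52.1, 37.5, 34.9, 64.0 and 37.3), and lowest in mouse 7. Of that sum the marker Calb1 alone held 28.3 RPKM in mouse 7 and 21.1 in mouse 10. The part of cerebellar RNA in the order of Rgs8 was not tested. Rgs8 was lower than Rgs4 in 5 of 5 mice, with a log2 ratio to Rgs4 of -2.59 ± 0.16 (exact p = 0.0625, adjusted p = 0.0729).

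Rgs2, an inhibitor of Gq signalling, had 12.8, 13.3, 11.8, 10.8 and 7.996 RPKM and was lowest in mouse 11. Rgs16 averaged 6.27 ± 1.06 RPKM and Rgs3 1.86 ± 0.246. The other members of this family, Rgs1, Rgs13 and Rgs18, known from blood and immune cells, had at most 10 counts in a library, and Rgs21 had none.

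The R7 family comprises the RGS proteins stabilised by the Gnb5 product. Its 4 genes all passed 5 RPKM on average and summed to 34.3 ± 3.33 RPKM. Rgs9, whose long form is known from striatum and whose short form is known from photoreceptors, had 12.8, 10.8, 12.3, 10.5 and 10.6 RPKM in mice 7 to 11, a narrow band. Rgs7 had 13.5, 11.4, 13.2, 10.4 and 8.44 RPKM and was lowest in mouse 11. No difference between them was detectable: the log2 ratio of Rgs9 to Rgs7 averaged 0.01 ± 0.17 and was positive in 2 of 5 mice (exact p = 0.938, adjusted p = 0.938), and it averaged -0.06 without mouse 11. Rgs7 stood below Rgs4 in 5 of 5 mice, the log2 ratio of Rgs4 to Rgs7 being 3.31 ± 0.28 (exact p = 0.0625, adjusted p = 0.0729). Rgs6 had 5.50, 5.85, 6.45, 5.70 and 5.73 RPKM, with an SD of log2 CPM of 0.10, and Rgs11 averaged 5.70 ± 1.10 RPKM.

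In the R12 family, Rgs14, a scaffold known from neurons of hippocampal area CA2, had 13.9, 13.3, 14.9, 13.99 and 23.8 RPKM, with mouse 11 far above the other 4. Rgs10, found in neurons and microglia, had 10.5, 14.05, 12.4, 12.1 and 10.8 RPKM and Rgs12 5.68, 4.65, 6.07, 5.76 and 6.73. Rgs14 exceeded Rgs12 in 5 of 5 mice, by 1.30 ± 0.23 on the log2 scale (exact p = 0.0625, adjusted p = 0.0729). With the M21 exon length Rgs14 would average 9.38 RPKM. The RZ family acts on the Gnaz product among others. Rgs17 had 20.2, 12.04, 9.36, 8.78 and 7.37 RPKM in mice 7 to 11, highest in mouse 7 and lowest in mouse 11. Rgs20 had 4.01, 5.73, 5.66, 4.93 and 5.61 RPKM and was lowest in mouse 7. The log2 ratio of Rgs17 to Rgs20 was therefore 2.09 in mouse 7 and between 0.34 and 0.95 in the others (mean 0.95 ± 0.67, exact p = 0.0625, adjusted p = 0.0729). Rgs19 had 5.85, 6.47, 5.93, 6.37 and 8.45 RPKM and was highest in mouse 11. Rgs22, known from testis, averaged 0.422 ± 0.0728 RPKM.

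Whether any member varied between mice more than genes of its expression level was tested for the 43 members whose mean count reached 10; the other 10 members were below it. None of the 43 was called variable in the edgeR quasi-likelihood test with Benjamini-Hochberg adjustment at 0.05, against 0% of all 16318 genes tested. Even the cerebellum marker Cbln3, with counts of 91, 5, 0, 391 and 22, had an adjusted p of 0.585 in this edgeR test. The lack of calls therefore does not show that the members were stable. At an unadjusted p under 0.05 there were 2 members, or 4.65%, beside 4.82% of all genes tested. These were Rgs17 with an unadjusted p of 0.0223 in edgeR and Gnas with an unadjusted p of 0.0254 in edgeR, and the Benjamini-Hochberg adjusted p was 0.981 for each. DESeq2 marked 0 members as dispersion outliers, beside 0.3% of all genes tested. The shares of members are thus close to the shares of all genes, and Rgs17 without mouse 7 had an SD of log2 CPM of 0.26 in place of 0.54. The median SD of log2 CPM was 0.25 over the 43 members and 0.30 over all genes tested. The 11 members with an SD of 0.36 or more were Gnb3 (1.012), Gna15 (0.99), Gng13 (0.83), Gng8 (0.67), Gnas (0.65), Rgs17 (0.54), Gnb2 (0.40), Gng11 (0.39), Rgs14 (0.38), Gngt2 (0.38) and Gnai3 (0.37). Gnb3, Gna15, Gng13, Gng8 and Gngt2 had mean counts of 10.4 to 34.6, where counting error alone is large.

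In mouse 11 the members differed from the other mice according to the GC content of their transcripts. On the log2 CPM scale 18 of 43 members were highest in mouse 11, beside 37.6% of all genes tested, and 11 were lowest there, beside 32.7%. Of the 26 members at or above the median GC content of all genes, which is 49.4%, mouse 11 was the highest for 16 and the lowest for 1, beside 65.1% and 8.9% of all genes in that range. Of the 17 members below it, mouse 11 was the highest for 2 and the lowest for 10, beside 10.3% and 56.4% of all genes in that range. The GC-rich members with the largest positive deviations of mouse 11 from the mean log2 CPM included Gng13 (1.07), Gnb2 (0.70), Rgs14 (0.67), Gnai2 (0.60), Gnaz (0.55) and Gna11 (0.51). Among the AT-rich members the deviation was -0.56 for Gnai3, -0.49 for Rgs17, -0.42 for Rgs2, -0.37 for Gnal and -0.35 for Rgs7. Across genes, Spearman's rank correlation between GC content and this deviation was 0.757 over the 43 members and 0.697 over 16264 genes. The points are genes of the same 5 libraries, and the correlation is a description. The pattern among the members was thus also that of all genes tested. Several of the SDs above rest on mouse 11: without it the SD of log2 CPM was 0.09 for Gnb2, 0.02 for Gna11, 0.11 for Gnai2, 0.08 for Rgs14, 0.02 for Gnb4, 0.22 for Gnai3 and 0.13 for Rgs2. Without mouse 9 it was 0.28 for Gna15 and 0.06 for Rgs6.

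**Figure D3:**
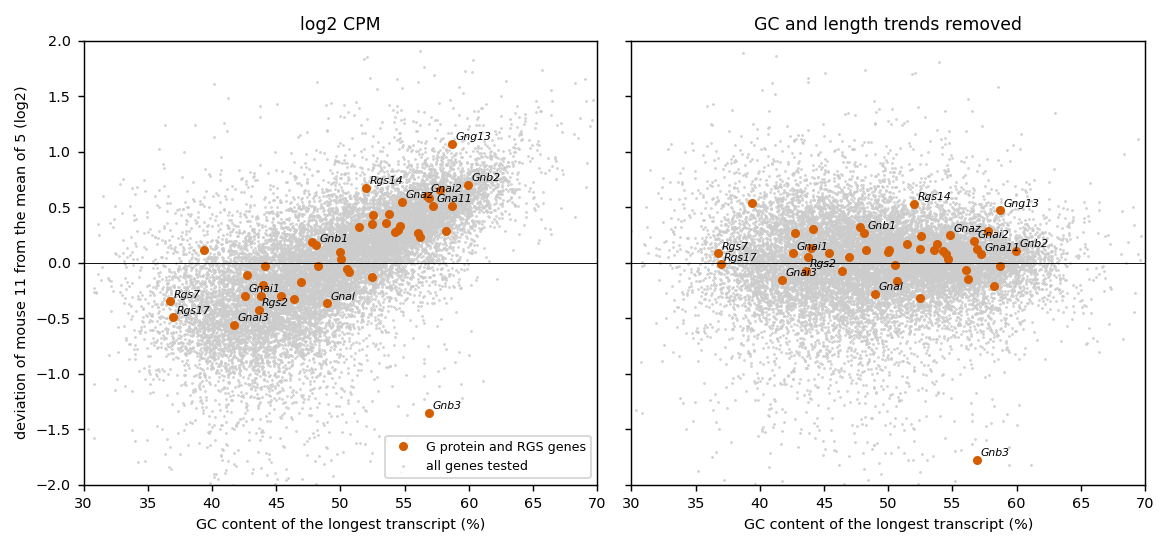
Deviation of mouse 11 from the mean log2 CPM of the 5 mice against the GC content of the longest transcript, in percent, for G protein and RGS genes (orange) and all genes tested (grey), before and after removal of each library's trends with GC content and length. On the left most AT-rich members lie below 0 and most GC-rich members above it, for example Gnai3 at -0.56 and Gnb2 at 0.70, along the grey cloud. On the right this slope has been subtracted, and members lie between -1.78 for Gnb3 and 0.54 for Gng5. Outside the frame are 63 grey points on the left and 46 on the right.

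When each library's trends with GC content and gene length were removed, this correlation over the members was -0.02. The subtraction takes out the GC slope by construction (-0.017 over all genes), and a fall in SD follows in part from it. Neither is a test of the trends. The median SD of log2 CPM was then 0.16 over the members and 0.23 over all genes, and the SD was smaller than before for 32 of 43 members, beside 69.1% of all genes tested. The SD of Gnb2 was 0.07 after removal and 0.40 before it. For Gna11 the values were 0.06 after and 0.29 before, for Rgs2 0.08 and 0.26, for Gnai3 0.13 and 0.37, and for Rgs17 0.27 and 0.54. The deviation of Rgs14 in mouse 11 was still 0.53 after removal (0.67 before), and the SD of Gnas was 0.62 (0.65 before). The deviation of Rgs17 in mouse 7 was 0.43 after removal and 0.88 before it. Rgs11, whose deviation in mouse 7 was 0.33 before, was at 0.44 there.

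After removal, mouse 7 was the lowest library for 15 of 43 members, beside 30.3% of all genes tested. Among the 15 were the leading genes Gnb1 (-0.23), Rgs4 (-0.41), Gnao1 (-0.16), Gnai1 (-0.24) and Gnaq (-0.22), together with Gng12 (-0.47), Rgs20 (-0.37) and Rgs8 (-0.31). Before removal mouse 7 was the lowest for 13 of 43 members, beside 25.4% of all genes tested, and the lowest member deviation there was -0.383. The lows of Gng12 and Rgs4 were thus larger after the subtraction. On removal the SD rose for 11 of 43 members. Among them were Gng12 (0.32 after, 0.20 before), Rgs4 (0.25 and 0.22), Rgs20 (0.26 and 0.24) and Gnb1 (0.18 and 0.16). For Gnao1, Gnai1 and Gnaq the SD fell. The mean deviation of the 8 striatal markers was also lowest in mouse 7, at -0.24 after removal, and 5 of the 8 had their lowest RPKM there. This low was not particular to the striatal markers. The mean deviations of the neuron (-0.13), astrocyte (-0.13) and microglia markers (-0.12) after removal were lowest in mouse 7 as well. Those of the oligodendrocyte (0.02) and mural cell markers (0.13) were above 0 in mouse 7. The mean deviation of the cerebellum markers was 1.04 there, a mean that includes genes with counts of 0 in mouse 9. The part of regional or cell type composition in these values was not tested.

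**Figure D4:**
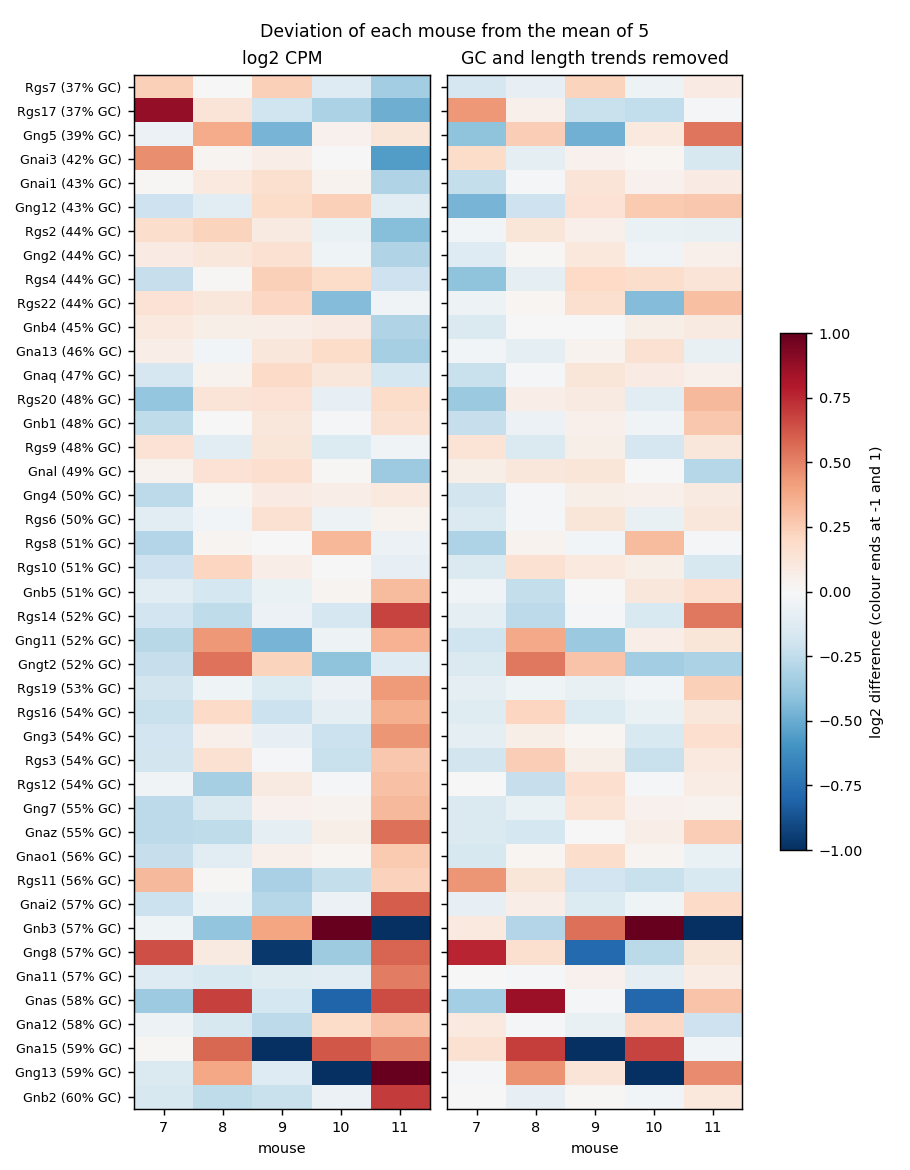
Deviation of each mouse from the mean log2 CPM of the 5 mice for the 43 G protein and RGS genes whose mean count reached 10, ordered from low to high GC content, before (left) and after (right) removal of GC and length trends; red is above and blue below the mean. On the left the column of mouse 11 turns from blue to red down the page. On the right this turn has been subtracted with the trends, while single genes such as Gnb3, Gna15, Gng13 and Gnas keep their contrasts.

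Several members lie beside a close relative on the chromosome, and in 6 such pairs of subunits a single gene averaged at least 1 RPKM. Within 300 kb of each other there were 12 neighbouring pairs of members (coordinates of GRCm38 from GENCODE M21). On chromosome 10, Gna11 (chr10:81528724-81545190) and Gna15 (chr10:81502306-81524225) are 4.50 kb apart on the same strand and averaged 34.2 and 0.988 RPKM. Gna15 itself was above 1 RPKM in mice 8, 10 and 11, at 1.31, 1.34 and 1.18, and at 0.239 in mouse 9. On chromosome 3, Gnai3 (chr3:108107280-108146146) and Gnat2 (chr3:108092789-108101432) are 5.85 kb apart on opposite strands and averaged 10.3 and 0.0820 RPKM. On chromosome 19, Gnaq (chr19:16132831-16387463) and Gna14 (chr19:16435762-16610820) are 48.3 kb apart and averaged 55.7 and 0.137 RPKM. The same contrast was seen for Gng11 and Gngt1 on chromosome 6 (6.47 kb apart, 11.9 and 0 RPKM), Gnai2 and Gnat1 on chromosome 9 (39.1 kb apart with 1 coding gene between them, 50.8 and 0.0962 RPKM) and Gnai1 and Gnat3 on chromosome 5 (245 kb apart, 90.04 and 0 RPKM). In these 6 pairs the gene with the higher mean exceeded its neighbour in 5 of 5 mice. On chromosome 1 the row of Rgs2, Rgs13, Rgs1, Rgs21 and Rgs18 held a single gene above 1 RPKM, Rgs2 with 11.4, followed by Rgs13 with 0.125. Rgs8 and Rgs16, 40.0 kb apart on the same chromosome, were both expressed, at 19.4 and 6.27 RPKM. The remaining pair, Rgs9 and Gna13 on chromosome 11, joins genes of different classes.

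**Figure D5:**
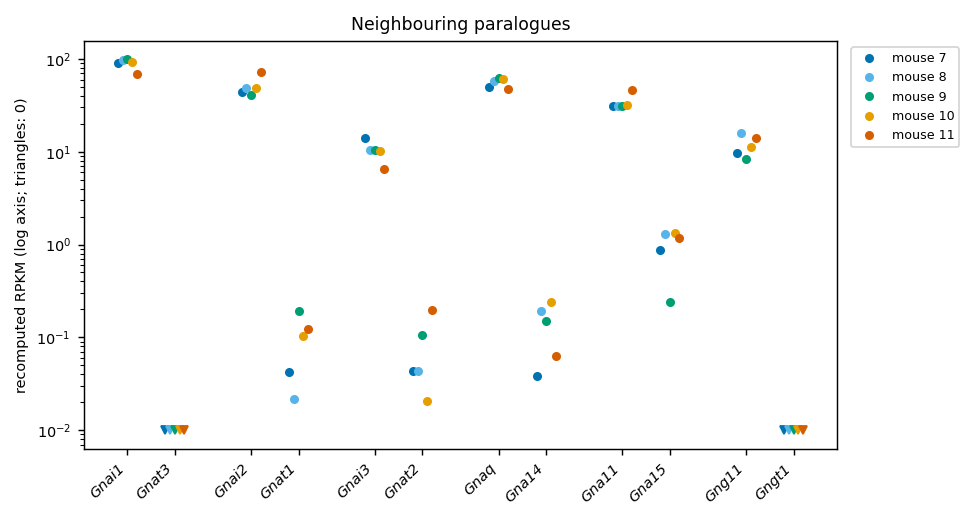
Recomputed RPKM on a log axis of 6 pairs of neighbouring related genes, with 1 point per mouse coloured by mouse and triangles at the foot for values of 0. The left gene of each pair lies at 6.52 RPKM or above in every mouse and the right gene at 1.34 RPKM or below.

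The promoter windows of 3 of these pairs are given because the genes of a pair are related and adjacent and differ in level. Each line holds the 250 bases before the first start that RefSeq lists for the gene (GRCm38.p6), in the direction of transcription, with CG dinucleotides in capitals. The windows are chr10:81545163-81545412 (minus strand) for Gna11, chr10:81524226-81524475 (minus) for Gna15, chr19:16132434-16132683 (plus) for Gnaq, chr19:16435417-16435666 (plus) for Gna14, chr3:108146153-108146402 (minus) for Gnai3 and chr3:108092816-108093065 (plus) for Gnat2.
Gna11: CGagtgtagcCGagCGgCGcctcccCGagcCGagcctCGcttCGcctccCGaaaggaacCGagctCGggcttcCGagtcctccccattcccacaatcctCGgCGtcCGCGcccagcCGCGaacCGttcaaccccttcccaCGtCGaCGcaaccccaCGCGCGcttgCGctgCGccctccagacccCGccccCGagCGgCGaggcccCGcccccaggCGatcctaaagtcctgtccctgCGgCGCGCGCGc
Gna15: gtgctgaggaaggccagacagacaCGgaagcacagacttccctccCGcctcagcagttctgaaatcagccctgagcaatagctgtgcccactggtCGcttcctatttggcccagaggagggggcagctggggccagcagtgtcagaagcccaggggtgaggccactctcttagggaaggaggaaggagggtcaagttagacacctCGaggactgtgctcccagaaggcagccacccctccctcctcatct
Gnaq: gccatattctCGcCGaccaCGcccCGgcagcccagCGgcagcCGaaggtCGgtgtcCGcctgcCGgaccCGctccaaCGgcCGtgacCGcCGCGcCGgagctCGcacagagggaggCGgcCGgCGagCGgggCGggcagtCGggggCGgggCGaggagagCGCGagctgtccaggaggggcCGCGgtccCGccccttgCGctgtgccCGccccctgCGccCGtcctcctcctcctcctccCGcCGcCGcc
Gna14: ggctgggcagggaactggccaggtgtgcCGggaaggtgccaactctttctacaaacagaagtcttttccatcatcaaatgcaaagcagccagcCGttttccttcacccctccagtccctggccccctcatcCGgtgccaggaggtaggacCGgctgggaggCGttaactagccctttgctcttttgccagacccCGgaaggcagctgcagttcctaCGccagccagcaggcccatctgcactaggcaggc
Gnai3: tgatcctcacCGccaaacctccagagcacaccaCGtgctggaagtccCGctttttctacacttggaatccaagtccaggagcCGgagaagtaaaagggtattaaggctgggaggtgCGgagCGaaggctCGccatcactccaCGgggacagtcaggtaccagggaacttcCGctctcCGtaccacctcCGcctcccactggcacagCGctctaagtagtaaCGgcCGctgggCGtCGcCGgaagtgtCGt
Gnat2: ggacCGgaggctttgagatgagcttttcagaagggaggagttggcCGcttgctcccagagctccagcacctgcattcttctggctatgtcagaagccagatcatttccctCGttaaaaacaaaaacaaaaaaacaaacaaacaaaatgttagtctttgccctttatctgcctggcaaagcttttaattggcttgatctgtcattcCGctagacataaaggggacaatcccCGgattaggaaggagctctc
The window of Gna11 holds 38 CG dinucleotides and that of Gna15 4. There are 37 for Gnaq and 7 for Gna14, and 18 for Gnai3 and 5 for Gnat2. The Gnat2 window lies within the gene as GENCODE M21 draws it, which starts at 108092789 on the plus strand. By that annotation it is not upstream sequence.

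A promoter window was found for 39 of the 53 members. The median number of CG dinucleotides was 18 in the 31 members with at least 1 RPKM, against 4 in the 8 members below 1 RPKM and 6 over 27025 promoters of all genes. The 27025 were not selected by level, so they are not a like group for the 31. Promoters of all genes with at least 1 RPKM were not looked at. Exceptions stood on both sides: Gng3 had 2, Gnb5 had 3 and Gng2 had 3 in their listed windows at high levels, and Gng10 had 18 at a low level. A GC box (GGGCGG, searched on both strands) was in 54.8% of the 31 and 12.5% of the 8, against 32.9% of all promoters. A TATA box (TATAAA, both strands) was in 16.1% and 12.5%, against 12.97% of all promoters. The 12.5% is 1 window, that of Gngt1 (chr6:3993758-3994007, plus strand). Like the Gnat2 window, most of it lies within the gene as GENCODE M21 draws it, which starts at 3993792. A cAMP response element (TGACGTCA, the same on both strands) was in 0 of the 39 windows, against 1.62% of all promoters. These letters describe windows and are no measure of binding, and the start used in these brains was not measured.

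The partners of the G proteins were taken from a list of 44 genes, of which 41 were tested for spread between mice. None was called in the edgeR quasi-likelihood test after Benjamini-Hochberg adjustment, 2 had an unadjusted p under 0.05, beside 4.82% of all genes tested, and DESeq2 marked 0 as dispersion outliers. Among adenylyl cyclases, the enzymes that Gs and Gi/o subunits regulate, Adcy1 was the highest with 87.1 ± 9.69 RPKM and Adcy10 the lowest with 0.142 ± 0.0391. Of the phospholipases activated by Gnaq and Gna11 products, Plcb1 led with 22.3 ± 5.46 RPKM and Plcb2 was lowest with 0.708 ± 0.166. Plcb4 was 1 of the 2 genes with a low unadjusted p (0.0139 in edgeR), with 15.3, 9.38, 7.74, 8.08 and 4.14 RPKM in mice 7 to 11. As for Rgs17, mouse 7 had the highest and mouse 11 the lowest value. Potassium channels opened by beta and gamma subunits were led by Kcnj3 with 21.1 ± 2.70 RPKM, and Kcnj5 had 0.497 ± 0.0681.

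Of the kinases that phosphorylate active receptors, Grk2 was highest at 60.4 ± 11.03 RPKM and the photoreceptor kinase Grk1 had no counts. Arrb1 led the arrestins, which bind phosphorylated receptors, with 37.6 ± 1.91 RPKM, and the photoreceptor arrestin gene Sag was lowest with 0.227 ± 0.0427. Of the chaperones and exchange factors that help G proteins fold and assemble, Cct5, a subunit of the CCT chaperonin, was highest with 34.6 ± 11.2 RPKM, and Pdc, the photoreceptor phosducin gene, had 0.00372. Among regulators with GoLoco motifs, which hold Gi alpha subunits in the GDP form, Gpsm1 led with 7.999 ± 2.02 RPKM and Gpsm3 was lowest with 0.549 ± 0.241. Pcp2, a Purkinje cell gene of this group, had the other low unadjusted p (0.0108 in edgeR), with 0.563, 0.142, 0.105, 1.88 and 0.0877 RPKM and its highest value in mouse 10. It is also a cerebellum marker in the list given above.

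The membrane anchors of the R7 RGS proteins known from brain and from retina differed in level. Rgs7bp averaged 45.5 ± 8.96 RPKM and the receptor gene Gpr158 averaged 28.6 ± 3.77. Their retinal counterparts Rgs9bp and Gpr179 averaged 0.0820 ± 0.0205 and 0.273 ± 0.0819 RPKM.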

How the data were processed

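An Illumina mRNA kit was used for the libraries, per the labels. For each gene the authors deposited counts, which are whole numbers, and RPKM. The submitters' processing notes name CASAVA 1.7, STAR 2.4.1d, featureCounts 1.4.6-p4 and the GRCm38 genome, with no role or order. Neither annotation release nor strand setting is given in the sources used here. Overlapping, antisense and near-identical genes may therefore share or lose reads.

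The deposited RPKM imply 1 gene length over the 5 libraries, within 1%, for 0 of 12729 genes if divided by the library's own total, and for 12729 of them if totals rotate from gene to gene. Deposited values are 0.821 to 1.22 times those recomputed with the own total, so RPKM were recomputed from counts and the implied lengths. Of 49 members with an implied length, 40 were within 1% of the GENCODE M21 exon length; the other 4 members took the M21 length.

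Counts were analysed in edgeR 4.0.16 (R 4.3.3) with TMM scaling for the 16318 genes whose mean count reached 10. Quasi-dispersions from an intercept model were set against a robust F prior that follows mean log2 CPM (limma 3.58.1), and p-values were adjusted by Benjamini-Hochberg over all of these genes (threshold 0.05). The script was tested on simulated data. DESeq2 1.42.0 dispersion outliers were the other tool. Log2 CPM used a prior count of 1, and GC and length trends were removed per library with natural splines of 5 degrees of freedom each. Pairs were compared on log2(RPKM + 1), a scale that understates ratios of low genes, by exact two-sided sign-flip permutation tests over the 5 mice. Sequence shared with other genes was counted in 50-base stretches of M21 transcripts. Limits from a count of 0 cover counting error only. Promoter windows are RefSeq's, GRCm38.p6, at the first listed start, and 39 of 53 members matched by symbol.

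Members, gene lists and pairs were chosen with earlier results of these data known. Values for every mouse are given for the 11 members with the largest SD, the 3 highest of each class or RGS family, and genes of the pairs; partner genes are named where highest or lowest in their group, and Plcb4 and Pcp2 were chosen after their values were seen. A further RGS gene is not reported here. Alternatives tried were other scalings, other filters, removal of the trends, M21 lengths, other pseudocounts, and leaving out each mouse in turn.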

Additional observations from a re-analysis of the deposited data

Results flagged for a closer look

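Levels, class sums, shares and log2 ratios were looked at, 65 in all. Of these, 13 had 1 mouse far from the other 4, by a gap of over 0.71 of the whole range (Dixon's criterion for 5 values). Chance alone gives about 1 in 20 independent groups of normal values such a gap. The 65 are not independent, since sums, shares and ratios are built from the same levels, so 13 of 65 cannot be set against that rate. In 12 of the 13 the distant mouse was mouse 11, and in 1 it was mouse 7. Of the 43 member levels among them, 9 had such a gap, 8 of these in mouse 11. Over all 16318 genes tested, 12% had such a gap and 8.74% had it in mouse 11, which was also the highest library for 37.6% and the lowest for 32.7% of all genes.

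GC-rich members stood high in mouse 11. Gna11 had 46.2 RPKM there, against a range of 31.0 to 31.7 RPKM over mice 7 to 10. For Gnb2 the value was 68.4 RPKM, against 37.3 to 42.7, and for Gnai2 it was 72.4, against 40.7 to 48.8. Rgs14 reached 23.8 RPKM, against 13.3 to 14.9, and Rgs19 reached 8.45, against 5.85 to 6.47. Low in mouse 11 were Gnai1 with 69.5 RPKM, against 91.4 to 99.3, Gnal with 31.3, against 43.1 to 47.5, and Gnb4 with 2.67, against 3.58 to 3.73. Gng4 was low in mouse 7, with 17.3 RPKM, against 20.9 to 21.5 over mice 8 to 11.

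Some ratios between members also stood apart in mouse 11. The log2 ratio of Gnai2 to Gnai1 was 0.057, against -1.27 to -0.92 over mice 7 to 10. That of Gnb5 to Gnb4 was 4.62, against 3.88 to 4.06. For Gng3 to Gng2 it was 1.62, against 0.63 to 0.84, and for Rgs9 to Rgs7 it was 0.30, against -0.09 to 0.01. With the trends in GC content and length removed, the deviation of mouse 11 was 0.07 for Gna11, 0.11 for Gnb2 and 0.53 for Rgs14.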

How the results depend on the processing

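No member was called variable under any alternative that was run. Few genes were called over all genes either, so this does not show that the members were stable. Over all genes, the number called was 0 as reported, 2 with a filter at a mean count of 1 (edgeR), and 49 as DESeq2 dispersion outliers. With M21 exon lengths Gnao1 made up 16.04% of the summed alpha level in place of 22.7%, and Gnb1 73.4% of the beta level in place of 63.2%. The log2 ratio of Rgs9 to Rgs7, 0.01 as reported, was -0.059 without mouse 11 and 0.040 at most when another mouse was left out. Leaving out 1 mouse at a time, the share of Gnao1 lay between 22.0% and 23.1%, that of Gnb1 between 62.3% and 64.4%, that of Gng3 between 35.1% and 37.6% and that of Rgs4 between 46.9% and 49.0%; 38 to 40 members had at least 1 RPKM. With a threshold of 0.5 RPKM 41 members passed. The median SD of members' log2 CPM was 0.17 without mouse 11 and 0.25 to 0.27 without any other mouse. No comparison between groups of mice was possible because the labels give a single group.

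Depth limits the members near 0: with up to 3 counts allowed by a count of 0, levels of Gnat3, Gngt1 and Rgs21 below that limit were not detectable. Removing trends does not restore a library, and 5 mice cannot give an exact p under 0.0625.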
